A study of Mus musculus with 18 samples.

Results

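Pitx3, Scara5, Nrep and Chrna4 are 4 genes whose RNA differed widely between fed and fasted mouse hepatocytes and whose part in the liver is little described. They were matched by symbol to the Ensembl gene identifiers of the deposited table, and all 4 were found among its 28030 genes and among the 12477 genes that held enough counts to be tested. The choice rested on measured values. In an earlier reading of these libraries, genes had been ranked by the size of their change in each fasting comparison, and these genes stood among the 3 with the largest change in a direction. Pitx3 was taken on pericentral hepatocytes at 8 h of fasting against fed, Scara5 and Nrep on periportal hepatocytes at 8 h against fed, and Chrna4 on 24 h against fed in both zones. The changes in those comparisons are therefore given as descriptions without a test, and so are all others that share libraries with them. Tests are given only for comparisons that used no library of the choice. The zone difference averaged over the feeding states includes those libraries, and the choice asked for a minimum level in them, so it too is a description.

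RNA was sequenced from hepatocytes of the pericentral zone of the liver lobule, around the central vein, and of the periportal zone, where blood enters. All mice were wild-type C57BL/6J males aged 12 weeks on normal chow, and the zones were obtained with digitonin, a detergent that opens cell membranes. All had been trained for 3 days to 16 h without food and 8 h with food each day, and on the last day all were given food and drinking water with 20% sucrose. Fed mice were killed after 4 h of that feeding, at clock hour 13. From then on the fasted mice had no food or sucrose, and they were killed after 8 h, at clock hour 21, or after 24 h, again at clock hour 13. Each zone and state had 3 libraries, 18 in all. Fasting for 8 h and the later clock hour cannot be told apart in this design. The labels do not say whether the 3 libraries of a group came from separate mice, so the p-values measure the spread between these libraries, which may be technical. In such bulk RNA, fewer cells of a type and less RNA per cell cannot be told apart.

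The 4 genes encode proteins of unlike kinds. Pitx3 is a homeodomain transcription factor known for the lens of the eye and for dopamine neurons of the midbrain. Scara5 is a class A scavenger receptor of the cell surface, known as a receptor for ferritin and as a gene expressed by fibroblasts. Nrep (neuronal regeneration related protein, also called P311) is a small protein known from nerve and muscle cells and for raising the translation of transforming growth factor beta (TGF-beta). Chrna4 is the alpha4 subunit of neuronal nicotinic acetylcholine receptors, ion channels of 5 subunits in which it usually pairs with the beta2 subunit.

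Each library held 1.84e+07 to 2.64e+07 estimated counts and 15145 to 15840 genes with a count, and levels are given in CPM, the counts scaled to the same normalised total in each library. The floor of 3 counts corresponded to 0.104 to 0.168 CPM, depending on the library. The zone labels were checked on marker sums. Cyp2e1, Cyp1a2, Oat and Glul together took 9305 to 18314 CPM in the 9 pericentral libraries and 420 to 2044 CPM in the 9 periportal ones, and Cyp2f2, Hal, Gls2 and Sds took 278 to 1793 CPM against 3134 to 5413 CPM. Replicate 2 of the pericentral 24 h group stood apart in its zone markers, with 111 CPM of the pericentral gene Glul against 928 and 707 CPM in the other replicates, and a periportal marker sum of 1793 CPM against 869 and 806 CPM. Hepatocyte markers summed to 54462 to 180258 CPM in each library. Markers of other cells were far lower: 0.983 to 16.9 CPM for the 12 stellate cell and fibroblast genes, 2.63 to 25.8 CPM for the 5 sinusoidal endothelial genes, 0.326 to 16.5 CPM for the 5 Kupffer cell and leukocyte genes, 19.3 to 56.7 CPM for the 5 cholangiocyte genes (of which Epcam was at 0 in every library), 4.31 to 20.2 CPM for the 8 neuron and glia genes and 0.104 to 2.75 CPM for the 4 mesothelial genes.

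**Figure D1:**
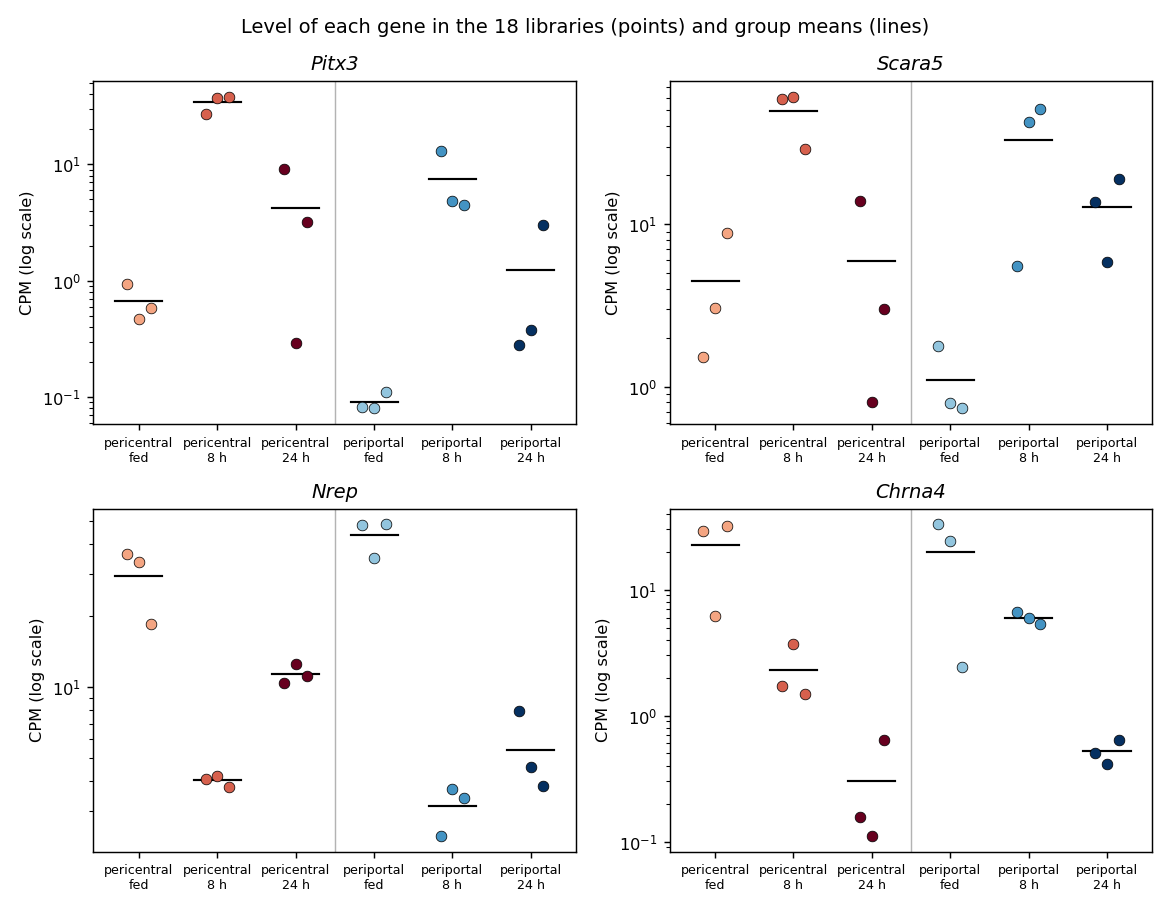
Level of Pitx3, Scara5, Nrep and Chrna4 in the 18 libraries (points) with the mean of each group of 3 (lines), in CPM on a log scale, with pericentral groups to the left of each panel and periportal groups to the right. Pitx3 and Scara5 had their highest group means at 8 h of fasting in each zone, Nrep was highest in fed libraries and lowest at 8 h, and Chrna4 was highest in fed libraries and lowest at 24 h.

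Pitx3 (ENSMUSG00000025229) lies on the minus strand of chr19:46135685-46148326 in mm10. In pericentral hepatocytes it was at 0.933, 0.473 and 0.584 CPM in the 3 fed libraries, in the order of their replicate numbers. At 8 h it was at 27.1, 37.5 and 38.2 CPM, and at 24 h at 9.18, 0.294 and 3.21 CPM. All 3 libraries at 8 h lay above every other library of the series, whereas those at 24 h spread from below the fed libraries to 9.18 CPM, and the lowest of them was replicate 2, whose zone markers stood apart. In periportal hepatocytes Pitx3 was nearly absent when fed, with 2, 2 and 3 counts (0.0825, 0.0799 and 0.110 CPM). It was at 13.1, 4.89 and 4.52 CPM at 8 h and at 0.279, 0.374 and 3.03 CPM at 24 h. No fed library overlapped the fasted ones there.

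By group mean the order of Pitx3 was pericentral 8 h (34.3 ± 6.23 CPM; SD, n = 3), periportal 8 h (7.50 ± 4.84), pericentral 24 h (4.23 ± 4.53), periportal 24 h (1.23 ± 1.56), pericentral fed (0.663 ± 0.240) and periportal fed (0.0909 ± 0.0168). Of the neighbours in this order, the first pair and the last pair did not overlap, and the groups between them did.

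In the pericentral comparison on which Pitx3 had been chosen, the fitted log2 fold change at 8 h against fed was 5.66, the second largest rise of 661 genes. To enter that ranking a gene had to be called (adjusted p under 0.05), to reach 10 CPM on average in the higher group, and to show no overlap between the groups. The last gene taken there, Mt2, stood at 5.34, and the first one left out, Mt1, at 4.25. The periportal libraries had no part in that choice, and Pitx3 rose in them at 8 h by 6.28 ± 1.31 on the log2 scale (SE; adjusted p = 0.00603, quasi-likelihood test of edgeR with Benjamini-Hochberg adjustment over all genes tested), where 7.56% of all genes tested were called higher. With limma-voom in place of edgeR the rise was 5.94 and did not pass (adjusted p = 0.09). The fitted value rests on few fed counts. Summed over the 3 libraries of each group, 531 counts stood against 7, a ratio of 84.4 between the normalised levels with an exact binomial 95% interval of 40.7 to 211, which covers counting error only. At 24 h against fed the periportal change was 3.70 ± 1.58 (adjusted p = 0.123), with 80 counts against 7 and a ratio of 13.7 (6.36 to 35.2), and 9.59% of genes were called higher. From 8 h to 24 h it was −2.59 ± 0.91 (adjusted p = 0.105), where 4.24% of genes were called lower. Neither of these 2 changes passed the test. The last one did when replicate 3 of the periportal 24 h group was left out (−4.48, adjusted p = 0.0459), and also without replicate 2 of the pericentral 24 h group (−2.59, adjusted p = 0.0416), which entered only through the shared spread.

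Averaged over the 3 states, the log2 difference of Pitx3 between the zones (periportal minus pericentral) was −2.25 ± 0.67, where 9.96% of all genes were called lower. It is a description, because Pitx3 met the minimum of 10 CPM of the choice through the pericentral 8 h libraries. The libraries of the zones overlapped over the states, and the difference was −1.81 to −2.88 over the 18 fits without 1 library. By state it was −2.81 in fed and −2.18 at 8 h, also as descriptions. At 24 h, which had no part in the choice, it was −1.76 ± 0.92 and did not pass the test (adjusted p = 0.363), where 2.47% of genes were called lower.

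**Figure D2:**
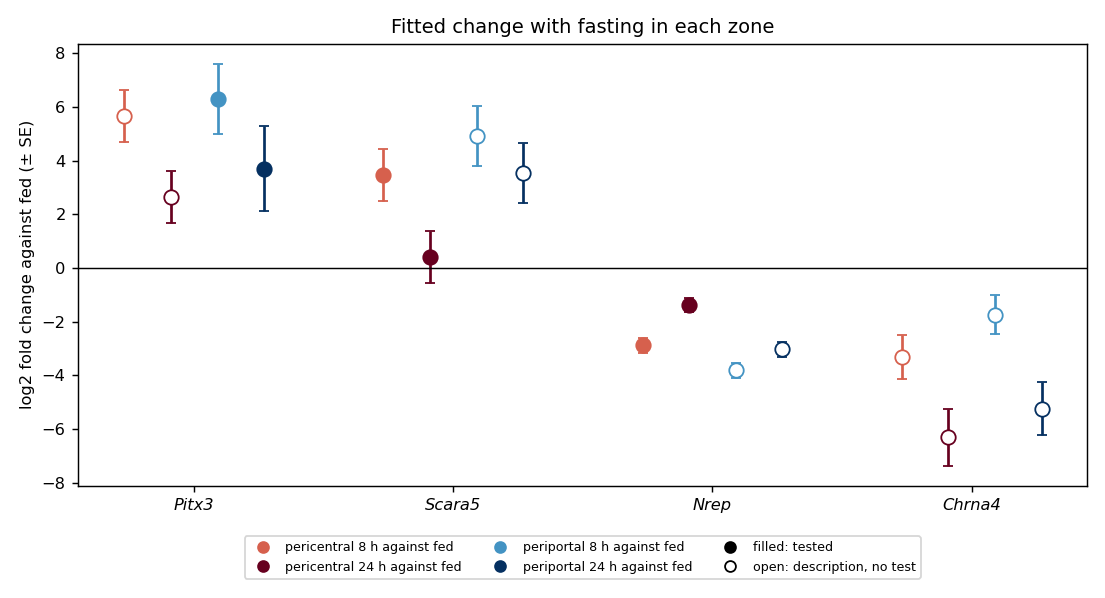
Fitted log2 fold change against fed (± SE) of each gene at 8 h and 24 h in each zone, with filled points for the comparisons that were tested and open points for those given as a description because the gene had been chosen on their libraries. Pitx3 and Scara5 lie above 0 at 8 h in both zones, and Nrep and Chrna4 lie below 0 at 8 h and 24 h in both zones.

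The promoter of Pitx3 is shown because the level of this gene had the widest span of the 4, with its highest library at 478 times its lowest. The RefSeq table for GRCm38.p6 held windows for Pitx3 and Chrna4. For Pitx3 the 250 bases before the annotated start, chr19:46148326-46148575 on the minus strand, read as follows, 5′ to 3′, with each match to the Sp1 motif GGGCGG in capitals.
Pitx3 promoter: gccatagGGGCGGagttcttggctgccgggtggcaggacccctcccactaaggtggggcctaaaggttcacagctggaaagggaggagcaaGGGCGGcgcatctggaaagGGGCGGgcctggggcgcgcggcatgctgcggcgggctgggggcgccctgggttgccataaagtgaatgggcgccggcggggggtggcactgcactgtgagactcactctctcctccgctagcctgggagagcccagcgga
GC bases made up 68.8% of this window, and the 3 matches began 243, 159 and 140 bases before the start. Of 32851 promoter windows of this length, 32.7% held GGGCGG on either strand. Each of 7 other motifs was searched on both strands and had no match: the cAMP response element TGACGTCA (in 1.55% of all windows), its shorter form TGACG (17.8%), which overlaps it, the FOXO site GTAAACA (3.17%), the glucocorticoid receptor hexamer AGAACA (16.1%), the E-box CACGTG (6.02%), the D-box TTATGTAA (0.819%) and the TATA box TATAAA (12.4%). The Chrna4 window, chr2:181039178-181039427 on the minus strand, lies within the gene as annotated by GENCODE, and 128 of its 250 bases are exon of Chrna4, so it is not wholly upstream of the gene and is not printed. In this window, with 74.4% GC, GGGCGG also had 3 matches and the other motifs had none. A missing match says only that these letters are not in this window.

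Pitx3 and Elovl3 had nearly the same pattern. Over the 18 libraries, the log2 CPM of Elovl3, a fatty acid elongase, was the most like Pitx3 among 10121 genes tested with a mean of at least 1 CPM (Pearson r = 0.978, Spearman rho = 0.986). The next were Eps8l2 (r = 0.921), Rnf217 (0.909), Dirc2 (0.908) and Fpgs (0.906). These correlations describe libraries that share their groups and preparation, and they carry no test. Elovl3 was at 20.7, 19.5 and 31.5 CPM in pericentral fed libraries, at 250, 379 and 384 CPM at 8 h, and at 92.1, 13.1 and 49.9 CPM at 24 h. In periportal libraries it was at 5.65, 5.75 and 3.05 CPM when fed, at 127, 52.3 and 56.9 CPM at 8 h, and at 7.32, 9.23 and 38.4 CPM at 24 h. Thus the library with the least Pitx3 among the pericentral 24 h libraries also held the least Elovl3, and the highest of the periportal 8 h libraries was the same for both.

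Elovl3 (ENSMUSG00000038754) is also the neighbour of Pitx3. It lies on the opposite strand, the 2 genes converge, and their annotated 3′ ends overlap by 10 bases. The use of strand in the counting is not given in the sources used here, and without strand reads from the overlap of these genes cannot be told apart. Of 1495 distinct stretches of 31 bases in the annotated Pitx3 transcripts, 0 occurred in transcripts of another gene. With the group means removed, the deviations of the 2 genes within groups still correlated with r = 0.921, ahead of all other candidates for Pitx3 (next Mbd5, 0.896). The number of Pitx3 counts for each 100 counts of Elovl3 was not constant. It was 4.50, 2.42 and 1.85 in pericentral fed, 10.8, 9.88 and 9.95 at 8 h and 9.97, 2.24 and 6.44 at 24 h; in periportal libraries it was 1.46, 1.39 and 3.61 when fed, 10.3, 9.35 and 7.94 at 8 h and 3.82, 4.05 and 7.89 at 24 h. All 6 libraries at 8 h were at 7.94 or above, and all 6 fed libraries were at 4.50 or below. The 24 h libraries spread from 2.24 to 9.97. The fed ratios rest on few Pitx3 counts, 12 to 27 in a pericentral library and 2 to 3 in a periportal one. The other 4 tested protein-coding genes within 100 kb of Pitx3 had r between 0.116 and 0.473, the highest being Ldb1. The part of overlapping transcription in the pattern was not tested. The comparisons of Pitx3 with Elovl3, of neighbours and of promoter motifs were chosen after seeing the data.

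**Figure D3:**
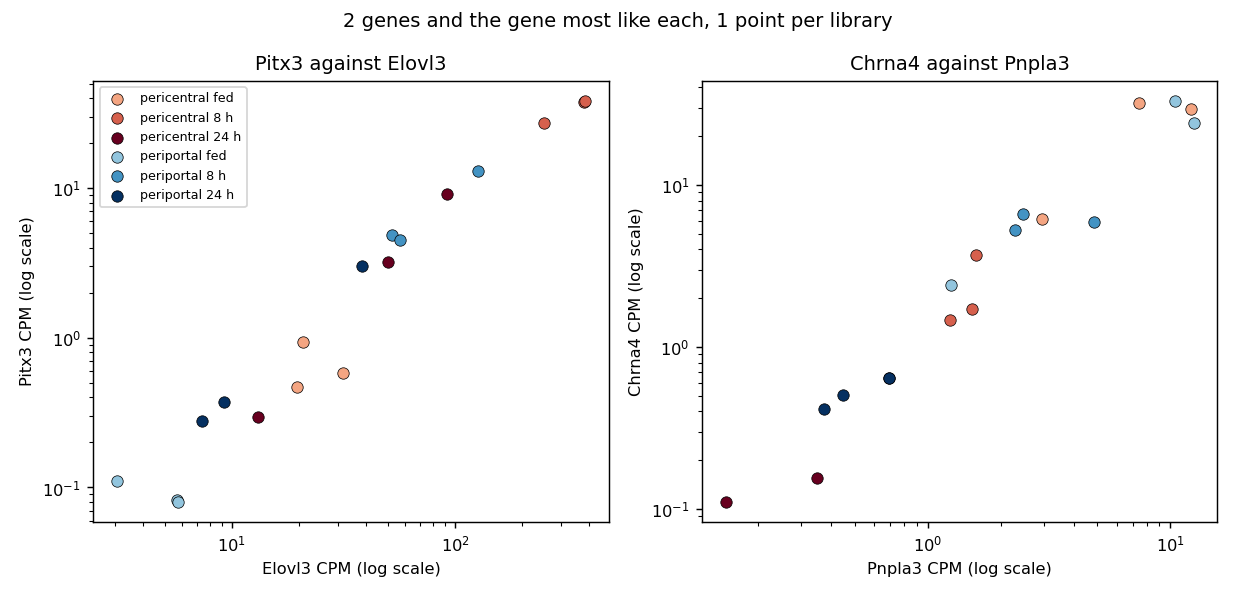
Level of Pitx3 against Elovl3 (left) and of Chrna4 against Pnpla3 (right), 1 point for each of the 18 libraries, in CPM on log scales and coloured by group. In each panel the points follow 1 line over the 6 groups (r = 0.978 and r = 0.980 on log2 CPM), and libraries of 1 group lie apart along it.

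Genes of the tissues in which Pitx3 is known were looked up. Of 20 genes linked to dopamine neurons or the lens, 9 were tested. Tyrosine hydroxylase (Th) and the dopamine transporter Slc6a3 had at most 1 count in any library, and the lens genes Foxe3 and Mip had at most 0 and 3 counts. Not all of the list was this low. Ddc was at 46.9 to 54.1 CPM in pericentral fed libraries, 71.6 to 90.7 CPM at 8 h and 34.3 to 62.2 CPM at 24 h. In periportal libraries it was at 35.8 to 75.8, 79.7 to 121 and 35.5 to 46.0 CPM. Its fasting changes were not called. Over all genes tested, 13.8% were called in pericentral hepatocytes at 8 h and 21.8% at 24 h, and 14.4% and 19.6% in periportal ones. Among the 9, 1 rose and 1 fell in pericentral hepatocytes at 8 h, 0 rose and 2 fell at 24 h; in periportal hepatocytes 0 rose and 1 fell at 8 h, and 1 rose and 2 fell at 24 h. Bdnf, a neurotrophin, fell in all 4 comparisons, by 1.16, 0.92, 1.64 and 1.12 on the log2 scale (adjusted p = 0.0204, 0.0436, 0.00257 and 0.0185). Foxa2, a transcription factor of liver as well as of midbrain neurons, fell at 24 h by 0.97 in pericentral and by 1.27 in periportal hepatocytes (adjusted p = 0.033 and 0.00931). Slc18a2, the vesicular monoamine transporter, rose by 0.83 in pericentral hepatocytes at 8 h and by 0.79 in periportal ones at 24 h (adjusted p = 0.0367 and 0.0429). Averaged over the states, where 20.3% of all genes tested were called, Aldh1a1 was higher in pericentral (log2 difference −1.30) and Maf in periportal hepatocytes (0.58). The median log2 fold change of the 9 genes lay between −0.47 and −0.24 in the 4 fasting comparisons, where the median over all genes tested was within 0.02 of 0.

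Scara5 (ENSMUSG00000022032) lies on the plus strand of chr14:65666403-65764826 in mm10. In pericentral hepatocytes its level was 1.52, 3.03 and 8.88 CPM when fed, 58.6, 60.8 and 28.9 CPM after 8 h, and 13.9, 0.809 and 3.02 CPM after 24 h. The 8 h libraries lay above the fed and the 24 h ones, and the fed and 24 h libraries overlapped. In periportal hepatocytes it was 1.77, 0.799 and 0.735 CPM when fed, 5.49, 42.7 and 50.9 CPM after 8 h, and 13.6, 5.82 and 19.0 CPM after 24 h. Here all 6 fasted libraries were above the 3 fed ones. Replicate 1 at 8 h was the lowest of the 6, although the same library held the most Pitx3 of its group.

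By group mean the order of Scara5 was pericentral 8 h (49.4 ± 17.8 CPM; SD, n = 3), periportal 8 h (33.0 ± 24.2), periportal 24 h (12.8 ± 6.64), pericentral 24 h (5.92 ± 7.04), pericentral fed (4.48 ± 3.89) and periportal fed (1.10 ± 0.583). Every pair of neighbours in this order overlapped.

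In the periportal comparison of 8 h against fed on which it had been chosen, Scara5 had a log2 fold change of 4.91, the third of 734 genes, and the first gene left out was Angptl4 at 4.27. At 24 h against fed it stood at 3.54 and from 8 h to 24 h at −1.37, as descriptions. In pericentral hepatocytes, which had no part in the choice, Scara5 rose at 8 h by 3.47 ± 0.97 (adjusted p = 0.0298, same test), beside 7.27% of all genes tested that were called higher. The call was lost without a filter on low counts (3.47, adjusted p = 0.0635), and without replicate 1 or 2 of the pericentral fed group (3.06 and 3.27) or replicate 1 or 2 of the pericentral 8 h group (3.33 and 3.31). At 24 h the pericentral change against fed was 0.42 ± 0.97 (adjusted p = 0.807), and 10.8% of genes were called higher. It ranged from −1.29 to 1.40 as single libraries were left out. The change from 8 h to 24 h was −3.05 ± 0.95 (adjusted p = 0.0614), where 4.51% of genes were called lower. Without replicate 1 of the pericentral 24 h group it passed the test at −4.77, and it also passed at −3.06 without replicate 1 of the periportal 8 h group, which entered only through the shared spread.

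At 24 h the log2 difference of Scara5 between the zones (periportal minus pericentral) was 1.10 ± 0.93, and it did not pass the test (adjusted p = 0.621), where 1.70% of genes were called higher. In fed and 8 h libraries it was −2.02 and −0.58, and averaged over the states −0.50 ± 0.57, as descriptions.

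Because Scara5 is known from fibroblasts, the 12 stellate cell and fibroblast markers, of which 3 were tested, were set beside it. At 8 h they summed to 0.983, 2.0 and 2.17 CPM in the pericentral libraries, where Scara5 was at 58.6, 60.8 and 28.9 CPM. In the periportal libraries at 8 h they summed to 1.33, 1.51 and 16.9 CPM, where Scara5 was at 5.49, 42.7 and 50.9 CPM. In fed libraries, where Scara5 was low, the sum was 1.49 to 2.69 CPM in pericentral and 4.87 to 7.16 CPM in periportal hepatocytes. The highest marker sum of the pericentral 8 h libraries was thus below the highest of the fed ones, and in periportal replicate 2 at 8 h Scara5 stood at 42.7 CPM beside a marker sum of 1.51 CPM. The list was not uniform. In the periportal 8 h library with the sum of 16.9 CPM, Dcn reached 6.99, Reln 4.38 and Lrat 2.52 CPM, each the highest of the 18 libraries, whereas Dpt had at most 1 count in any library. The 5 Kupffer cell and leukocyte markers summed to 0.686, 5.91 and 8.48 CPM in the periportal 8 h libraries, in the order in which Scara5 was at 5.49, 42.7 and 50.9 CPM, but to 0.655, 0.326 and 2.40 CPM in the pericentral 8 h libraries, where Scara5 was at 58.6, 60.8 and 28.9 CPM. The part of these cells in the level of Scara5 was not tested. These sums per library were added after seeing the data.

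The genes most like Scara5 were Ube2u, a ubiquitin-conjugating enzyme (r = 0.883, rho = 0.913), Blcap (r = 0.882), Asap2 (0.874), Slc45a3 (0.865) and Il1r1, the interleukin-1 receptor (0.857). Ube2u ranged only from 0.514 to 1.48 CPM in fed libraries and from 2.30 to 6.42 CPM at 8 h. Within groups, the deviations of Scara5 and Ube2u correlated with r = 0.499, on which measure Ube2u ranked 774 among the 10121 candidates. The 4 tested protein-coding genes within 100 kb of Scara5 had r between 0.0251 and 0.532.

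The other 4 class A scavenger receptors were all tested, and 0 of them rose with fasting. Over all genes tested, 7.27% to 10.8% rose and 6.57% to 11.1% fell in each fasting comparison. A count of 0 rises among 4 genes is near those shares. Colec12, a C-type lectin scavenger receptor, fell in all 4 comparisons by 0.38 to 0.44 on the log2 scale (adjusted p = 0.0365 and 0.0181 at 8 h and 24 h in pericentral, 0.0172 and 0.0177 in periportal hepatocytes), and its call at 8 h in pericentral hepatocytes held in 18 of 26 alternative analyses. Msr1, Marco and Scara3, of which the first pair are known from macrophages, were at no more than 1.30, 1.70 and 1.24 CPM in any library. Their fasting changes did not pass the test, and averaged over the states they were higher in periportal hepatocytes by 3.47, 3.24 and 2.80 on the log2 scale (adjusted p = 0.00294, 0.0212 and 0.00038), whereas Colec12 was higher in pericentral ones (−0.47, adjusted p = 7.53e-05). Over all genes tested, 10.3% were called higher and 9.96% lower in periportal hepatocytes in that averaged comparison. In fed libraries the Kupffer cell and leukocyte markers also differed between the zones. They summed to 1.04 to 1.71 CPM in pericentral and 3.42 to 6.72 CPM in periportal hepatocytes. Their sums overlapped between the zones at 8 h (0.326 to 2.40 against 0.686 to 8.48 CPM) and at 24 h (1.80 to 4.34 against 1.62 to 16.5 CPM). The part of such cells in the differences of these receptors was not tested.

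Scara5 is known as a ferritin receptor, and 20 genes of iron handling were tested. In pericentral hepatocytes 2 rose and 2 fell at 8 h, and 2 rose and 2 fell at 24 h; in periportal ones 3 rose and 1 fell at 8 h, and 1 rose and 2 fell at 24 h. These shares are near those over all genes tested, which were 13.8% and 21.8% in pericentral and 14.4% and 19.6% in periportal hepatocytes. Tfrc, the transferrin receptor that takes up iron, fell in all 4 comparisons, by 2.29 and 2.28 at 8 h and 24 h in pericentral and by 1.24 and 1.89 in periportal hepatocytes (adjusted p = 0.000292, 0.00022, 0.0159 and 0.000954). The metal transporter Slc39a8 rose by 0.66 at 8 h and 0.47 at 24 h in pericentral and by 0.65 at 8 h in periportal hepatocytes (adjusted p = 0.000185, 0.00222 and 0.000227), and the ferrireductase Steap3 rose at 8 h by 0.55 and 0.75 in the 2 zones (adjusted p = 0.033 and 0.00516). Slc40a1, the iron exporter ferroportin, rose by 1.32 at 24 h in pericentral hepatocytes (adjusted p = 0.00644), and Ncoa4, the receptor that carries ferritin to lysosomes, rose by 0.92 at 24 h in periportal ones (adjusted p = 0.00389). Of the ferritin subunits, Ftl1 fell by 0.47 at 8 h in pericentral hepatocytes (adjusted p = 0.0459). The list's medians, 0.05 to 0.13 in the 4 fasting comparisons, were near those of all genes. Averaged over the states, 6 of the 20 were higher and 1 lower in periportal hepatocytes, beside 10.3% and 9.96% of all genes.

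Nrep (ENSMUSG00000042834) lies on the minus strand of chr18:33437019-33464029 in mm10. Its level in pericentral hepatocytes was 36.4, 33.7 and 18.4 CPM when fed, 4.10, 4.19 and 3.79 CPM after 8 h, and 10.4, 12.5 and 11.1 CPM after 24 h. The 3 states did not overlap, with 24 h between fed and 8 h. In periportal hepatocytes it was 48.4, 34.9 and 48.6 CPM when fed, 2.34, 3.69 and 3.40 CPM after 8 h, and 7.88, 4.57 and 3.82 CPM after 24 h. There, too, every fasted library was below every fed one, and the 24 h libraries all lay above the 8 h ones.

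By group mean the order of Nrep was periportal fed (44.0 ± 7.86 CPM; SD, n = 3), pericentral fed (29.5 ± 9.70), pericentral 24 h (11.3 ± 1.06), periportal 24 h (5.42 ± 2.16), pericentral 8 h (4.02 ± 0.208) and periportal 8 h (3.14 ± 0.710). The first pair of neighbours overlapped, and so did periportal 24 h and pericentral 8 h; the other neighbours did not. At 8 h the 3 pericentral libraries differed by no more than 1.10-fold.

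In the periportal comparison of 8 h against fed on which it had been chosen, Nrep had a log2 fold change of −3.81, the second largest fall of 643 genes. The last gene taken there was Srebf1 at −3.78 and the first one left out was Fasn at −3.71. At 24 h against fed the periportal value was −3.03, as a description. In pericentral hepatocytes, which had no part in the choice, Nrep fell at 8 h by 2.87 ± 0.28 on the log2 scale (adjusted p = 9.37e-06, same test), beside 6.57% of all genes tested that were called lower. It fell at 24 h by 1.38 ± 0.26 (adjusted p = 0.0013), beside 11.1% of genes called lower. From 8 h to 24 h it rose by 1.49 ± 0.28 (adjusted p = 0.00379), where 5.20% of genes were called higher. These 3 calls held in all 26 alternative analyses. From 8 h to 24 h the periportal value was 0.78, as a description.

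At 24 h Nrep was lower in periportal than in pericentral hepatocytes by a log2 difference of −1.08 ± 0.27 (adjusted p = 0.0349), with no overlap between the zones, and 2.47% of all genes were called lower there. The call was lost without a filter on low counts (adjusted p = 0.0562), with only the groups compared in the fit (0.0618) and with limma-voom (0.0603). It was also lost without replicate 1, 2 or 3 of the pericentral 24 h group or replicate 2 or 3 of the periportal 24 h group, with differences of −0.88 to −1.43 over all 18 fits without 1 library. The zone difference was 0.58 in fed and −0.36 at 8 h, and −0.29 ± 0.16 averaged over the states, as descriptions.

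The genes most like Nrep were Stim2, a calcium sensor of the endoplasmic reticulum (r = 0.945, rho = 0.893), Pus7, a pseudouridine synthase (0.941), Erlin1 (0.928), Gtpbp8 (0.927) and Rab1a, a small GTPase of transport from the endoplasmic reticulum (0.925). The range of Stim2 was much narrower. It lay between 20.4 and 23.8 CPM in the 6 fed libraries, between 11.1 and 12.9 CPM at 8 h and between 11.6 and 17 CPM at 24 h, so that its highest library was 2.15 times its lowest, against 20.8 times for Nrep. With the group means removed, r was 0.156 and Stim2 ranked 2842 among the 10121 candidates, so the likeness lies in the group means. No protein-coding gene within 100 kb of Nrep was tested.

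Because P311 is known for its action on TGF-beta, 21 tested genes of TGF-beta ligands, receptors and SMAD proteins were examined. In pericentral hepatocytes 2 rose and 0 fell at 8 h, and 2 rose and 1 fell at 24 h. In periportal hepatocytes 0 rose and 0 fell at 8 h, and 0 rose and 2 fell at 24 h. Tgfbr2, the type II receptor, fell at 24 h by 1.03 in pericentral and by 1.12 in periportal hepatocytes (adjusted p = 0.012 and 0.00919). The corepressor Tgif1 rose in pericentral hepatocytes by 0.81 at 8 h and 0.65 at 24 h (adjusted p = 0.0116 and 0.0299), the corepressor Skil by 0.52 at 8 h (adjusted p = 0.049) and Smad4 by 0.39 at 24 h (adjusted p = 0.0463). Ski fell by 0.50 in periportal hepatocytes at 24 h (adjusted p = 0.0356). The ligands Tgfb1, Tgfb2 and Tgfb3 were not called in the 4 fasting comparisons. Between the zones 5 of the 21 were higher and 1 lower in periportal hepatocytes, with Ltbp4 at 3.12 and Tgfbr3 at −2.19, beside 20.3% of all genes called in either direction. Over all genes tested, 13.8% and 21.8% were called at 8 h and 24 h in pericentral and 14.4% and 19.6% in periportal hepatocytes. The share called in this list was lower in each fasting comparison. With 21 genes tested, each gap amounts to few genes, and nothing is concluded from it.

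Chrna4 (ENSMUSG00000027577) lies on the minus strand of chr2:181018380-181043546 in mm10. In pericentral hepatocytes it was at 29.3, 6.14 and 31.9 CPM when fed, at 1.72, 3.67 and 1.47 CPM after 8 h, and at 0.156, 0.110 and 0.643 CPM after 24 h. In periportal hepatocytes it was at 33.0, 24.1 and 2.42 CPM when fed, at 6.58, 5.91 and 5.31 CPM after 8 h, and at 0.503, 0.416 and 0.644 CPM after 24 h. In each zone the 24 h libraries were below all others of that zone. One fed library in each zone was far below its group, and in periportal hepatocytes that library, replicate 3, lay below all 3 libraries at 8 h.

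By group mean the order of Chrna4 was pericentral fed (22.5 ± 14.2 CPM; SD, n = 3), periportal fed (19.8 ± 15.7), periportal 8 h (5.94 ± 0.636), pericentral 8 h (2.29 ± 1.21), periportal 24 h (0.521 ± 0.115) and pericentral 24 h (0.303 ± 0.295). The first 3 groups overlapped one after the other, and so did the last pair. Periportal 8 h and pericentral 8 h did not overlap, nor did pericentral 8 h and periportal 24 h.

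The comparisons of 24 h against fed had chosen Chrna4, and among 913 and 882 genes in the rankings of falls it stood first in both zones, with a log2 fold change of −6.31 in pericentral and −5.24 in periportal hepatocytes, ahead of Fasn at −5.79 and −4.70. In counts, 1825 in the 3 pericentral fed libraries stood against 20 at 24 h, a ratio of 83.3 between the normalised levels. In periportal libraries 1468 stood against 33, a ratio of 37.0. Both ratios are descriptions, and the fed libraries differed up to 5.20-fold in pericentral and 13.6-fold in periportal hepatocytes. At 8 h against fed the values were −3.31 and −1.74 and from 8 h to 24 h −3.0 and −3.50, all as descriptions. Only the zone comparison at 8 h used no library of the choice. There the log2 difference of Chrna4 was 1.39 ± 0.81 (periportal minus pericentral) and did not pass the test (adjusted p = 0.36) although the libraries did not overlap, and 3.72% of genes were called higher. Averaged over the states the difference was 0.70 ± 0.60, as a description.

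The low fed libraries of Chrna4 also differed in fed-state genes. Fasn, the fatty acid synthase, was at 864 CPM in pericentral fed replicate 2 against 1734 and 1211 CPM in the other replicates, and at 452 CPM in periportal fed replicate 3 against 1457 and 1527 CPM. The 18 genes of the lipogenic list summed to 15103 CPM in the former against 30060 and 21811 CPM, and to 6795 CPM in the latter against 21947 and 25765 CPM. Pck1, an enzyme of glucose production that is high in fasting, was at 276 CPM against 75.7 and 157 CPM, and at 2198 CPM against 593 and 927 CPM. Both libraries thus held less lipogenic and more Pck1 RNA than the other fed libraries of their zone. What set them apart was not tested.

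The gene most like Chrna4 was Pnpla3, a lipid droplet protein and a member of the lipogenic list (r = 0.980, rho = 0.969). Hcn3, an ion channel, followed with r = 0.951, and then Pgd, an enzyme of the pentose phosphate pathway (0.934), Arhgdia (0.933) and Slc25a44 (0.930). Pnpla3 was at 12.2, 2.95 and 7.40 CPM in pericentral fed and at 10.4, 12.5 and 1.25 CPM in periportal fed libraries. The lowest fed library in each zone was the same as for Chrna4. At 8 h Pnpla3 was at 1.52, 1.58 and 1.24 CPM in pericentral and 2.46, 4.85 and 2.28 CPM in periportal libraries, and at 24 h at 0.35, 0.15 and 0.69 CPM and 0.45, 0.37 and 0.69 CPM. With the group means removed the deviations correlated with r = 0.908, second to Cyb5r3 at 0.914. The 3 tested protein-coding genes within 100 kb of Chrna4 had r between 0.107 and 0.385. The comparison with Pnpla3 was chosen after seeing the data.

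Genes of the lipogenic list fell in the same comparisons in which Chrna4 was low. Of its 18 genes, 1 rose and 10 fell in pericentral hepatocytes at 8 h and 1 rose and 14 fell at 24 h; in periportal hepatocytes 1 rose and 9 fell at 8 h, and 2 rose and 14 fell at 24 h. Over all genes tested, 6.57% (at 8 h) and 11.1% (at 24 h) fell in the pericentral zone, 6.85% and 1250 of 12477 genes in the periportal zone, and 7.27% to 10.8% rose in each comparison. Its median log2 fold changes were −2.28 and −2.92 in pericentral and −1.37 and −2.66 in periportal hepatocytes. The member that rose at 8 h was Insig2, which holds back the lipogenic factor SREBP. Fasn, Elovl6 and Angptl8 led the falls at 24 h in pericentral hepatocytes (−5.79, −5.58 and −4.73), and in periportal ones Fasn, Angptl8 and Elovl6 did (−4.70, −4.44 and −4.22).

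Chrna4 forms receptors only with other subunits, and of the other 15 nicotinic subunit genes 4 were tested. Chrnb2, its usual partner, was at 1.45 to 9.79 CPM over the 18 libraries and was not called in any fasting comparison. Chrna2, a related alpha subunit, moved the other way from Chrna4: in pericentral hepatocytes it averaged 4.35 CPM when fed, 5.56 after 8 h and 9.01 after 24 h, and in periportal ones 3.28, 4.00 and 8.83 CPM. It rose at 24 h by 1.05 ± 0.34 in pericentral and by 1.42 ± 0.34 in periportal hepatocytes (adjusted p = 0.0342 and 0.00851). Chrnb4 stayed under 1 CPM in every library and rose by 1.80 at 8 h in pericentral hepatocytes (adjusted p = 0.037), a call that held in 18 of 25 alternative analyses. Chrnb1 had at most 13 counts. Of the others, Chrna5, Chrna10 and Chrng were at 0 in all 18 libraries and Chrna1, Chrna3, Chrna6, Chrna7, Chrna9, Chrnb3, Chrnd and Chrne had at most 6 counts. Of 5049 distinct stretches of 31 bases in the Chrna4 transcripts, 22 also occur in Chrna2, so 99.56% are its own.

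**Figure D4:**
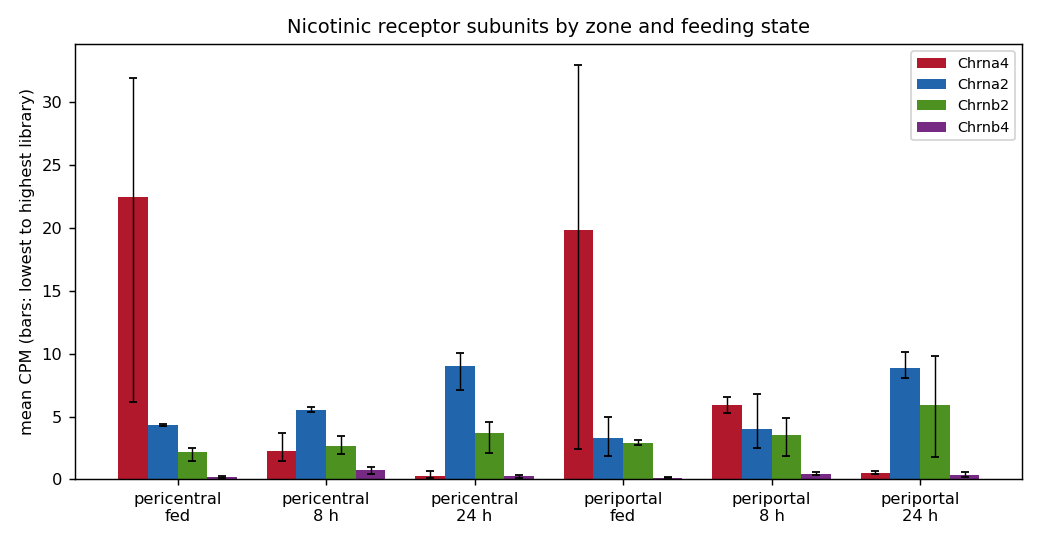
Mean level in CPM of the nicotinic subunit genes Chrna4, Chrna2, Chrnb2 and Chrnb4 in each group of 3 libraries, with lines from the lowest to the highest library. Chrna4 was highest in the fed groups and lowest at 24 h, whereas Chrna2 was highest at 24 h; CPM are not corrected for gene length, so the heights of different genes are not to be compared.

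Genes of acetylcholine handling and of the chaperones of nicotinic receptors were mostly too low to test: 3 of 16 were tested, Bche, Ric3 and Lynx1. None of the 3 was called in the 4 fasting comparisons by edgeR. Over all genes tested, 13.8% to 21.8% were called there, and 0 of 3 genes is near those shares. Ric3, a receptor chaperone, was higher in periportal hepatocytes averaged over the states (1.08, adjusted p = 0.033), where 10.3% of all genes were called higher. That call of Ric3 held in 14 of 24 alternative analyses. Chrna4 and Nrep are known from neurons, and the 8 neuron and glia markers summed to 9.54 to 15 CPM in pericentral fed, 12.2 to 20.2 CPM at 8 h and 13.9 to 16.1 CPM at 24 h, and to 6.13 to 9.53, 4.31 to 7.13 and 5.24 to 8.55 CPM in the periportal groups. Most of each sum came from Syt1, at 3.02 to 17.2 CPM, and Sox10 and S100b had at most 1 count in any library. Chrna4 and Nrep had lower group means in both fasted states than in fed libraries in each zone. Over the same states the marker sums lay within or above the fed range in pericentral hepatocytes, and in periportal ones 1 library at 8 h and 2 at 24 h lay below it. The part of such cells in the levels of these genes was not tested.

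Among the 4 genes, the levels over the 18 libraries paired Pitx3 with Scara5 (r = 0.778) and set both against Nrep (−0.752 and −0.787). Chrna4 had r = 0.410 with Nrep, −0.206 with Pitx3 and −0.161 with Scara5. By group mean, Pitx3, Scara5 and Nrep had their extreme at 8 h, at clock hour 21, and Chrna4 at 24 h, at the clock hour of the fed mice. Lists of fasting and clock genes give the background to these times, and their counts stand beside the shares of all genes that rose, 7.27% and 10.8% at 8 h and 24 h in pericentral and 7.56% and 9.59% in periportal hepatocytes, and that fell, as given above for the lipogenic list. Of 14 tested gluconeogenic and cAMP-responsive genes, 4 rose at 8 h and 8 at 24 h in each zone and 0 fell, with Pck1 at 3.64 and 4.83 in pericentral and 1.91 and 2.26 in periportal hepatocytes. Of 14 glucocorticoid target genes, 6 rose and 0 fell at 8 h in pericentral hepatocytes and 9 rose and 0 fell at 24 h, and in periportal ones 6 rose and 1 fell at 8 h and 9 rose and 1 fell at 24 h. Of 17 clock genes, 3 rose and 7 fell at 8 h in pericentral and 3 rose and 8 fell in periportal hepatocytes, with Npas2 at 5.09 and 6.83, Arntl at 2.70 and 2.61, Dbp at −4.96 and −4.08 and Per2 at −3.96 and −3.51. At 24 h, 3 rose and 1 fell in pericentral and 2 rose and 3 fell in periportal hepatocytes. All 207 calls on genes of these lists, over the 4 fasting comparisons and the averaged zone comparison, kept their sign in every alternative analysis that tested the gene. Keeping the sign is a weaker demand than staying called, and calls of Colec12, Chrnb4 and Ric3 given above were lost in some alternatives.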

How the data were processed

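The values are estimated counts for each gene in 1 table that the authors deposited, made with kallisto 0.46.0 against mm10 per the submitters' processing notes; the transcript annotation, the use of strand and the step from transcripts to genes are not given in the sources used here. Per the labels, total RNA was turned into libraries with a NEBNext Ultra RNA kit. Between 67.5% and 70.5% of the values were whole within 1e-09. They were rounded to whole counts before testing. Of 28030 genes, 27566 had a symbol and 12477 passed filterByExpr on the 6 groups and held at least 99.95% of each library's counts.

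Tests were run with edgeR 4.0.16 in R 4.3.3 (TMM scaling, robust quasi-likelihood fit and its F test), in 1 fit of 18 libraries with 6 group coefficients, adjusted by Benjamini-Hochberg over all genes tested and called at an adjusted p under 0.05. The SE is the log2 fold change divided by the square root of F. Lists are given by counts of calls and medians. Likeness was computed on log2 CPM (prior count 2). Of 17 planned tests on the 4 genes, the averaged zone differences are given as descriptions, since the choice of the genes used some of their libraries. The members and the gene lists were chosen with earlier results of these data known. Always named were the 4 genes, the 5 genes most like each, and the families of class A scavenger receptors and nicotinic subunits, and from each other list at most 3 genes per comparison and direction with the largest change among those called. Alternatives were DESeq2 size factors, scaling without the 20 most abundant genes, other filters, only the groups compared, a replicate block, DESeq2 1.42.0, limma-voom with limma 3.58.1, and each library left out. Gene positions and transcripts are those of GENCODE M21 on mm10, and promoters are from RefSeq on GRCm38.p6. The fit was tested on simulated counts. A planned look-up of further genes is not reported here. No pair of replicates in a group was alike enough to be 1 library deposited again.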

Additional observations from a re-analysis of the deposited data

How the results depend on the processing

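Over the 17 planned comparisons of the 4 genes, 0 called values changed sign. Without a filter on low counts, the averaged zone difference of Pitx3, a description, was −2.25, the pericentral change of Scara5 at 8 h was 3.47 (adjusted p = 0.0635) and the zone difference of Nrep at 24 h −1.08 (0.0562), the changes of Scara5 and Nrep not called. With only the groups compared, the last was −1.07 (0.0618). With the DESeq2 Wald test, periportal Pitx3 at 24 h against fed (3.77, adjusted p = 0.00553) and pericentral Scara5 from 8 h to 24 h (−3.06, 0.0137) were called. With limma-voom, periportal Pitx3 at 8 h (5.94, adjusted p = 0.09) and the Nrep zone difference at 24 h (−1.16, 0.0603) were not called, and the averaged zone difference of Pitx3 was −2.11. The cause was not tested.

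Leaving out each library in turn gave these ranges of log2 values where a call or a value moved. Pitx3 ranged from −4.48 to −1.92 from 8 h to 24 h in periportal hepatocytes, and its zone difference from −3.0 to −2.47 in fed, from −2.87 to −1.92 at 8 h and from −2.88 to −1.81 on average. Its periportal change from 8 h to 24 h was called without pericentral 24 h replicate 2 (−2.59). Scara5 in pericentral hepatocytes ranged from 3.06 to 4.45 at 8 h and from −4.77 to −2.52 from 8 h to 24 h. The Nrep zone difference at 24 h ranged from −1.43 to −0.88. Chrna4 ranged from −4.04 to −2.51 from 8 h to 24 h in pericentral hepatocytes and from 0.46 to 1.93 for the zone difference at 24 h, both extremes of the second and the lowest value of the first without a pericentral 24 h library.

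With the replicate number as a block, periportal Pitx3 at 8 h was 6.25, pericentral Scara5 at 8 h 3.60 and pericentral Nrep at 8 h −2.85, and 0 of the 17 calls changed. The labels do not say whether the numbers pair the libraries. Deviations from the group means correlated with r between −0.120 and 0.206 for the 45 pairs of the same number, 7 of them over 0.1. For the 90 pairs of different numbers r lay between −0.168 and 0.144, with 3 over 0.1. The median r was 0.0321 for the same number and −0.0207 for different numbers. As a hint from the data only, 14 of 18 libraries were best correlated, on average, with their own number.

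The counts of called genes moved more than those of single genes. From 1212 called from 8 h to 24 h in pericentral hepatocytes they ranged from 534 to 1580, from 931 in periportal ones from 335 to 1367, from 520 for the zones at 24 h from 252 to 821, from 891 at 8 h from 450 to 1275, from 1000 when fed from 614 to 1315, from 1798 for periportal 8 h against fed from 1081 to 2147 and from 2446 at 24 h from 1512 to 2750. Of 1419 recomputed counts of called list genes, 1282 stayed within 1.5 times. By Spearman's rho, 3, 4, 2 and 3 of the 5 genes most like Pitx3, Scara5, Nrep and Chrna4 remained. Another scaling moved the median of all genes by at most 0.0145. Depth limits Pitx3 in periportal fed libraries and Chrna4 at 24 h, with 2 to 3 and 3 to 14 counts per library.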
